A study of Homo sapiens with 6 samples.

Results

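MicroRNA host genes are transcripts whose introns or exons carry the hairpins of microRNAs. The 8 host genes described here are MIR1-1HG, MIR17HG, MIR22HG, MIR31HG, MIR100HG, MIR155HG, MIR210HG and MIR503HG, all annotated as long non-coding RNAs. They were followed in KHOS and U-2OS cells, a pair of established human osteosarcoma lines; KHOS derives from a line that was transformed with a Kirsten murine sarcoma virus. Each line was measured after transfection with a plasmid vector for miR-1 (pEP-miR-1), after transfection with the empty vector (pEP-miR-Null), and as a control with no vector named in the labels. Vectors were given with Lipofectamine LTX and Plus Reagent for 48 hours. Each of the 6 Affymetrix U133 Plus 2.0 arrays held RNA pooled from 3 flasks, so each line and treatment had 1 array and no replicate of its own. The sources used here do not state whether control cells received the reagent. The probe sets read host transcripts and not mature microRNAs.

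All 8 hosts had a probe set. The annotation gave them 13 of the 54675 probe sets on the array, and 9 of these had a mean over the 6 arrays of at least 5.11 on the log2 scale, which was the median over the whole array. Of the 13 probe sets, 7 carried the host's symbol alone and 6 carried it together with the symbols of its own microRNAs (MIR22, MIR155, the 6 hairpins of MIR17HG, and MIR424 with or without MIR503). In the RefSeq gene table (GRCh38.p14) these hairpins overlap the host, MIR424 only in part. The 6 probe sets therefore cannot tell host from hairpin precursor, and they are called here by the host's name. Probe sets of 1 host annotated to the same symbols were represented in the tests by the brighter one. That left 8 tested entries from 7 hosts among 13696 entries, since neither probe set of MIR210HG reached the filter.

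A host transcript is cut in the nucleus by the Drosha complex, which frees the hairpins, and Dicer then trims each hairpin to the mature microRNA. The mature strand finds its target messenger RNAs mainly by its seed, bases 2 to 8 from the 5′ end, so microRNAs with the same seed share predicted targets. Hosts are transcribed from promoters of their own, and several are known as direct targets of stress, growth or differentiation factors.

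RefSeq sequences (GRCh38.p14) were matched for all 8 hosts. The 18 hairpin genes that lie in or overlap them gave 34 mature microRNAs, with 31 distinct seeds. The sequences below are shown because they are the products of the hosts whose probe sets differed most between the lines. Capitals mark the seed. MIR155HG, once called BIC, carries the microRNA of activated immune cells, and MIR31HG and MIR22HG each carry 1 hairpin gene.
miR-155-5p: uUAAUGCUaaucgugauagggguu
miR-31-5p: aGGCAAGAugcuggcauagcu
miR-22-3p: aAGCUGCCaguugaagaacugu

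MIR100HG carries 4 hairpin genes, MIR100, MIRLET7A2, MIR125B1 and MIR10526, and its 3 best known products have different seeds.
miR-100-5p: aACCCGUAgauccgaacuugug
let-7a-5p: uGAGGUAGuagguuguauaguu
miR-125b-5p: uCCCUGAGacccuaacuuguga

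MIR17HG carries the miR-17-92 cluster of 6 hairpins, a cluster amplified in some lymphomas. Its miR-17-5p and miR-20a-5p share the seed AAAGUGC, miR-19a-3p and miR-19b-3p share the seed GUGCAAA, and miR-18a-5p and miR-92a-3p have seeds of their own within these hosts.
miR-17-5p: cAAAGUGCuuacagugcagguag
miR-20a-5p: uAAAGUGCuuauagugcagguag
miR-18a-5p: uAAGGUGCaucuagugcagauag
miR-19a-3p: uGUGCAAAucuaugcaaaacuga
miR-19b-3p: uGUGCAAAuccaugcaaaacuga
miR-92a-3p: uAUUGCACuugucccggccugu

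MIR1-1HG is shown because it is the host of 1 of the genes for miR-1, the microRNA that was transfected. MIR503HG is shown because its miR-503-5p and the neighbouring miR-424-5p begin alike and belong to the family of miR-16. The MIR424 hairpin overlaps MIR503HG only in part, and the mature miR-424 sequences lie outside the annotated host.
miR-1-3p: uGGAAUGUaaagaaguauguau
miR-133a-3p: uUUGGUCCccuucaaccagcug
miR-503-5p: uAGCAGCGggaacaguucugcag
miR-424-5p: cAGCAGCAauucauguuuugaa

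Over all probe sets, pairs of arrays correlated at 0.978 to 0.996 within a line and at 0.910 to 0.937 between lines. Array medians ran from 4.98 to 5.02 in KHOS and from 5.07 to 5.15 in U-2OS. The interquartile range was 3.35 with miR-1, 3.32 with miR-null and 3.24 for control in KHOS, against 2.75, 2.84 and 3.07 in the same order in U-2OS. The 18 spike-in probe sets averaged 9.93, 10.13 and 9.76 in KHOS, against 11.65, 11.33 and 10.81 in U-2OS, in the same order. The narrower, brighter-spiked U-2OS vector arrays enter every comparison given here, and the part of that difference in the results was not tested. Of 7 mesenchymal and osteoblast markers 5 reached the filter, while COL1A2 and ALPL stayed under 4.70. COL1A1 was at 10.07 to 12.07, SPARC at 10.64 to 12.06 and VIM at 13.15 to 14.30. RUNX2 was at 8.98 to 9.85 in KHOS and at 4.23, 4.72 and 6.74 in U-2OS (miR-1, miR-null and control). THY1 went the other way, at 5.99 to 6.41 in KHOS and at 7.37 to 8.17 in U-2OS. Of 5 epithelial markers 3 reached the filter and differed in direction: EPCAM was at 8.43 to 8.70 in KHOS and at 5.49 to 5.96 in U-2OS, CLDN4 at 5.04 to 5.30 in KHOS and at 5.58 to 6.36 in U-2OS, and KRT18 at 12.28 to 12.87 on all arrays.

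The first question was how the hosts differ between the lines. Of the 8 tested entries, 6 were higher in KHOS than in U-2OS and passed an adjusted p of 0.05, in the limma fit with treatment and line as terms and Benjamini-Hochberg adjustment over all entries. They belonged to MIR155HG, MIR31HG, MIR22HG, MIR17HG, MIR100HG and MIR503HG, and 0 entries passed as lower in KHOS. Differences were common in these lines: 54.5% of all tested entries passed, 30.1% as higher in KHOS and 24.4% as lower. The median difference of the 8 entries was 2.20 on the log2 scale, against -0.01 for all tested entries. All 3 KHOS arrays lay above all 3 U-2OS arrays for 6 of the 8 entries, against 32.6% of all entries, and below them for 1 of the 8, against 32.2%. MIR155HG reached the level filter through KHOS alone, so it could enter these counts only as higher in KHOS. The 8 entries come from 7 hosts, with MIR503HG counted more than once. Fewer cells that express a host and less of its RNA per cell cannot be told apart in these bulk samples.

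**Figure D1:**
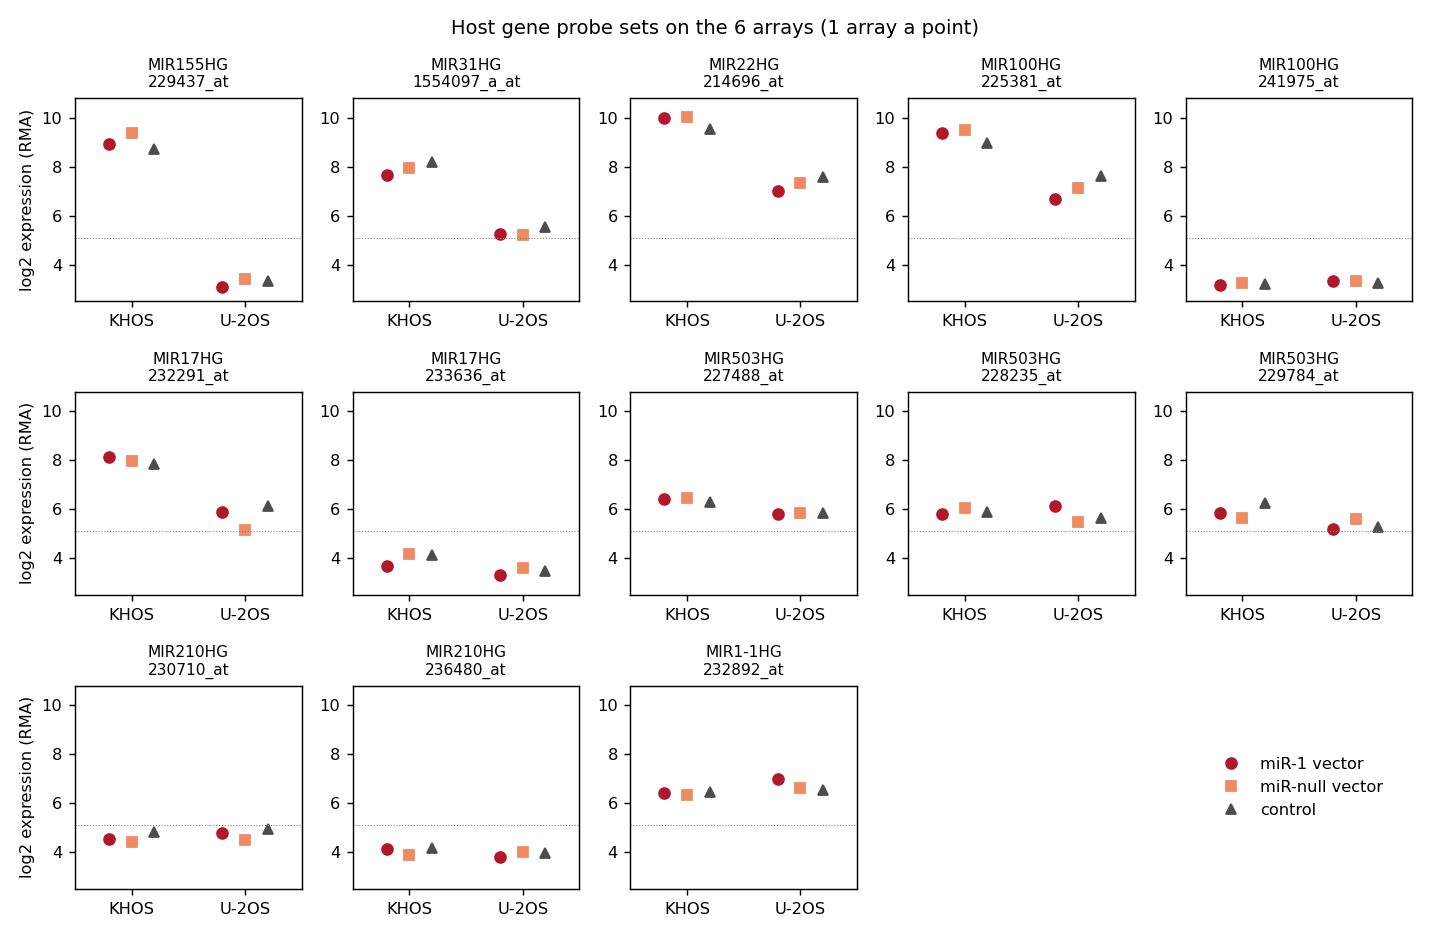
Log2 RMA expression (y axis) of the 13 host gene probe sets on the KHOS and U-2OS arrays (x axis), 1 panel a probe set and 1 point an array, with the miR-1 vector as circles, the miR-null vector as squares and control as triangles; the dotted line is the level filter at 5.11. The MIR155HG points sit between 8.71 and 9.36 in KHOS and between 3.08 and 3.41 in U-2OS, and the MIR210HG points sit under the line in both lines.

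MIR155HG showed the widest gap of the hosts. Its probe set read 8.91 with miR-1, 9.36 with miR-null and 8.71 for control in KHOS, against 3.08, 3.41 and 3.34 for the same treatments in U-2OS. The 3 KHOS arrays were therefore high and the 3 U-2OS arrays near the bottom of the scale, whose lowest value on any array was 2.83. The fitted difference was 5.72 ± 0.17 (log2, SE; adjusted p = 5.21e-06), with a 95% interval of 5.31 to 6.12. MIR155HG is the 1 tested entry that passed the level filter through KHOS alone, since its U-2OS arrays all lay under it. RMA compresses differences near the floor, so no fold is given; the KHOS mean lay 3.89 above the filter itself.

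The MIR155HG promoter from RefSeq is printed because this host differed most and because it held the only match to an AP-1 site among the promoters of the 8 hosts. It is the plus strand of chr21:25561895-25562194 in GRCh38.p14, 250 bases before the annotated start and 50 after it. Capitals mark TGAGTCA, an AP-1 word that begins at position -60 from the start, and CACGT, the hypoxia element read on the other strand, that begins at position -31.
MIR155HG promoter: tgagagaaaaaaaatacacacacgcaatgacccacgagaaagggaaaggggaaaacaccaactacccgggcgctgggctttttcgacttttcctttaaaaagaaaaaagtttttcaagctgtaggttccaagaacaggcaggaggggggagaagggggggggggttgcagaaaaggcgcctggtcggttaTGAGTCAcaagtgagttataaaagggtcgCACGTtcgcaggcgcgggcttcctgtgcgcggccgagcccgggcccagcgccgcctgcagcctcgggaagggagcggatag

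Both strands of the promoters were searched for AP-1 (TGACTCA), the CRE (TGACGTCA), a C/EBP-ATF element (TGATGCAA), the E-box (CACGTG), the hypoxia element (ACGTG) and E2F sites (TTTCCCGC, TTTGGCGC and TTTCGCGC). Of 35116 promoters of this length, 4.95% held the AP-1 word, 1.85% the CRE, 0.866% the C/EBP-ATF element, 7.26% the E-box, 21.4% the hypoxia element and 2.74% an E2F word. The hypoxia element also matched once each in the promoters of MIR22HG, MIR210HG and MIR503HG and in 1 of the 6 promoters of MIR100HG. It lies within every E-box match, and a match describes only the letters in the window.

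MIR155HG is known as a direct target of AP-1 and NF-kB in activated lymphocytes and macrophages, so 13 genes of these factors and their feedback were set beside it. Of the 12 tested, 2 were higher in KHOS and 2 were lower, against 30.1% and 24.4% of all tested entries. These 4 were named after their values were seen. FOSL1, an AP-1 subunit, differed by 1.84 ± 0.14 (adjusted p = 0.000161) and JUNB, another subunit, by 1.33 ± 0.30 (adjusted p = 0.0114), both higher in KHOS. RELA, the main NF-kB activating subunit, and SOCS1, a cytokine signalling inhibitor that miR-155 is known to target, were lower in KHOS by -0.58 and -0.58.

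MIR31HG, the host of miR-31 on chromosome 9 (21454268 to 21559798, GRCh38.p14), is known from senescence work as a transcript near the CDKN2A tumour suppressor locus. It read 7.64 with miR-1, 7.94 with miR-null and 8.17 for control in KHOS, against 5.26, 5.22 and 5.53 in U-2OS. The groups lay 2.11 apart at their nearest points. The fitted difference was 2.58 ± 0.15 (log2, SE; adjusted p = 5.12e-05), 5.98-fold higher in KHOS.

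The nearest measured gene on the right of MIR31HG differed the other way. MTAP, the methylthioadenosine phosphorylase gene often deleted together with CDKN2A, read 3.96, 4.39 and 4.28 in KHOS (miR-1, miR-null and control) against 6.68, 7.08 and 7.62 in U-2OS, and was lower in KHOS by -2.92 ± 0.18 (adjusted p = 7.46e-05). The KHOS values lay under the level filter and the U-2OS values above it. CDKN2A, 408 kb from MIR31HG, was also lower in KHOS, by -0.72 ± 0.17 (adjusted p = 0.0128). Its KHOS arrays read 4.75 to 4.84, under the filter, and its U-2OS arrays 5.19 to 5.74. MTAP and CDKN2A thus reached the filter through U-2OS alone and could pass only as lower in KHOS. In the list of 7 genes of 9p21, 4 were tested; FOCAD and MLLT3 were higher in KHOS by 1.36 and 1.16, and MTAP and CDKN2A were the 2 lower ones. On the left side the 3 neighbours, IFNA1, IFNA8 and IFNA2, were type I interferon genes at 3.32 to 3.83 on all arrays.

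MIR22HG, the host of miR-22 on chromosome 17, is known as a transcript that cells induce under chemical stress. Its probe set read 9.997 with miR-1, 10.02 with miR-null and 9.52 for control in KHOS, against 7.003, 7.35 and 7.56 in U-2OS. All KHOS arrays were above all U-2OS arrays, by 1.95 at the nearest. The fitted difference was 2.54 ± 0.22 (log2, SE; adjusted p = 0.000275), 5.82-fold. WDR81, which starts 0.3 kb from MIR22HG, was at 8.27 in KHOS and 8.30 in U-2OS on average, a fitted difference of -0.02 ± 0.15 (adjusted p = 0.910). SERPINF1, a secreted anti-angiogenic protein 45.8 kb away, and PRPF8, a core spliceosome protein 26.6 kb away, were higher in KHOS by 2.43 and 1.37.

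MIR100HG, a host that spans 394543 bases of chromosome 11, had 2 probe sets that read differently. Probe set 225381_at read 9.38, 9.48 and 8.96 in KHOS (miR-1, miR-null and control) against 6.68, 7.11 and 7.62 in U-2OS. The lowest KHOS array lay 1.35 above the highest U-2OS array, and the difference was 2.14 ± 0.27 (log2, SE; adjusted p = 0.00108), 4.40-fold. Probe set 241975_at stayed between 3.15 and 3.33 on all 6 arrays, near the bottom of the scale, with overlapping groups. Averaging both probe sets, as an alternative, lowered the difference to 1.02 (adjusted p = 0.0029). UBASH3B, a phosphatase gene 232.9 kb away, was higher in KHOS by 3.37 ± 0.26 (adjusted p = 0.000174).

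MIR17HG, whose cluster MYC and E2F factors are known to activate, read 8.15 with miR-1, 7.98 with miR-null and 7.83 for control in KHOS, against 5.90, 5.14 and 6.14 in U-2OS, on the probe set shared with its 6 hairpins (232291_at). The KHOS arrays spanned 0.32 and the U-2OS arrays 1.01, and the groups did not overlap. The difference was 2.26 ± 0.23 (log2, SE; adjusted p = 0.000518), 4.78-fold. Its other probe set, 233636_at, was dim in both lines, at 3.71, 4.19 and 4.13 in KHOS against 3.33, 3.60 and 3.46 in U-2OS, and lay 0.55 higher in KHOS (adjusted p = 0.0200 over all probe sets with no filter).

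Of the 9 regulators and relatives listed for MIR17HG, 8 were tested. Of these, 1 was higher and 2 were lower in KHOS, against 30.1% and 24.4% of all tested entries. MYC itself was lower in KHOS, at 11.07, 10.59 and 8.52 (miR-1, miR-null and control) against 12.55, 12.48 and 11.75 in U-2OS, a difference of -2.20 ± 0.33 (adjusted p = 0.00218). CDKN1A, the p21 inhibitor of cell cycle kinases, was lower by -0.73 (adjusted p = 0.0117). The gene that was higher was E2F3, a cell cycle transcription factor, by 1.01 (adjusted p = 0.0035), named after its value was seen.

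MIR503HG, on the X chromosome, carries MIR503 and overlaps MIR424, and its 3 probe sets gave smaller differences. Probe set 227488_at read 6.43, 6.48 and 6.32 in KHOS (miR-1, miR-null and control) against 5.83, 5.85 and 5.86 in U-2OS. Both groups were narrow and apart, and the difference of 0.56 ± 0.14 (log2, SE) passed at an adjusted p of 0.0150. The call was lost without either miR-null array (0.53, adjusted p = 0.150) and when either miR-1 array was dropped (0.54, adjusted p = 0.0699), though the direction stayed.

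The other probe sets of MIR503HG did not pass. Probe set 228235_at read 5.80, 6.04 and 5.88 in KHOS against 6.12, 5.48 and 5.64 in U-2OS, where the U-2OS miR-1 array was above every KHOS array. Its difference was 0.16 ± 0.20 with an interval of -0.32 to 0.64 (adjusted p = 0.507). Probe set 229784_at read 5.84, 5.65 and 6.24 in KHOS against 5.20, 5.61 and 5.27 in U-2OS, a difference of 0.55 with an adjusted p of 0.0716 over all probe sets. Among its neighbours, PLAC1, a placental and tumour antigen 19.2 kb away, was lower in KHOS by -2.66, while HPRT1, a purine salvage enzyme 42.7 kb away, and PHF6, a chromatin protein, were higher by 0.96 and 2.12.

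Genes of the cell cycle that the miR-16 seed family is known to target were listed beside MIR503HG. Of 8 tested, 1 was higher and 3 were lower in KHOS, against 30.1% and 24.4% of all tested entries. CCND2, cyclin D2, was lower in KHOS by -7.80 ± 0.24 (adjusted p = 6.47e-06), where its KHOS arrays read 4.38 to 4.65, under the level filter, and CCND1, cyclin D1, higher by 1.63 ± 0.18 (adjusted p = 0.000656). The other lower genes, named after their values were seen, were CCNE1, cyclin E1, at -1.47 and CHEK1, a checkpoint kinase, at -0.53. The arrays do not measure miR-503 or miR-424, so these values stand beside the host with no link tested.

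MIR1-1HG, on chromosome 20, is the host of miR-1-1 and miR-133a-2, which are known from heart and skeletal muscle. It read 6.43 with miR-1, 6.32 with miR-null and 6.46 for control in KHOS, against 6.99, 6.63 and 6.55 in U-2OS. The KHOS arrays lay below the U-2OS arrays by 0.08 at the nearest, and the difference of -0.32 ± 0.16 (log2, SE) did not pass (adjusted p = 0.123). It did pass when either control array was left out (-0.44, adjusted p = 0.0285). The skeletal muscle markers MYOG, ACTA1 and CKM were at 3.88 to 4.81 on all arrays, under the filter, while MYOD1 was at 5.29 to 6.31 and DES at 5.47 to 5.99.

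Of 10 muscle factors listed beside MIR1-1HG, 7 were tested. Of these, 2 were higher and 2 were lower in KHOS, against 30.1% and 24.4% of all tested entries. MEF2A, a factor of muscle gene expression, was lower by -0.79 (adjusted p = 0.00775) and MYOD1, the myogenic master regulator, by -0.57 (adjusted p = 0.0396). The 2 that were higher were named after their values were seen: HDAC4, a deacetylase that miR-1 is known to target in muscle, by 4.05 ± 0.14, and MEF2C, by 3.37 ± 0.32. Both passed the filter through KHOS alone, since in U-2OS HDAC4 read 3.89 to 4.16 and MEF2C 4.25 to 5.08, so these differences are against readings near the bottom of the scale.

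MIR210HG, the host of the hypoxia microRNA miR-210 on chromosome 11, was dim in both lines. Probe set 230710_at read 4.53, 4.40 and 4.81 in KHOS (miR-1, miR-null and control) against 4.77, 4.50 and 4.93 in U-2OS. Probe set 236480_at read 4.12, 3.89 and 4.16 in KHOS against 3.82, 3.999 and 3.98 in U-2OS. The groups overlapped on both, and the differences of -0.15 and 0.12 had adjusted p of 0.399 and 0.532 over all probe sets.
miR-210-3p: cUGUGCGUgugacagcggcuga

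Of 13 tested hypoxia genes, 5 were higher and 3 were lower in KHOS, with a median of 0.07. Over all tested entries 30.1% were higher and 24.4% lower. ADM, the adrenomedullin peptide gene, was higher by 2.11 ± 0.18 and NDRG1, a stress-responsive growth regulator, lower by -1.17 (adjusted p = 0.00279). The other higher genes, named after their values were seen, were VEGFA (1.44), SLC2A1 (1.36), BNIP3 (0.93) and HIF1A (0.55), and the other lower ones EGLN3 (-1.31) and KDM3A (-0.44). IRF7, the interferon transcription factor 44.1 kb from MIR210HG, was at 10.04, 10.84 and 8.68 in KHOS against 5.54, 5.43 and 5.41 in U-2OS, a difference of 4.39 ± 0.37 (adjusted p = 0.000263). The host beside it stayed under the filter on all 6 arrays.

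**Figure D2:**
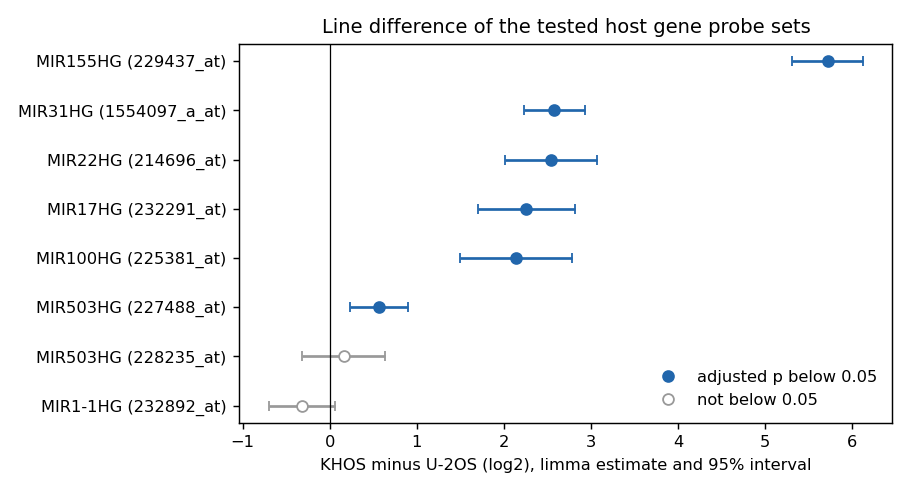
Fitted KHOS minus U-2OS difference (x axis, log2) of the 8 tested host entries (y axis), as the limma estimate with its 95% interval, filled where the adjusted p was below 0.05. MIR155HG stands at 5.72, 4 hosts lie between 2.14 and 2.58, MIR503HG 227488_at lies at 0.56, and the intervals of MIR503HG 228235_at and MIR1-1HG include 0.

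Over the 3 measured genes on each side of each host, 28 of 48 neighbours were tested, at distances of 0.3 to 3219.5 kb. Of these 28, 12 were higher and 6 were lower in KHOS, against 30.1% and 24.4% of all tested entries. Neighbours of MIR155HG did not pass: MRPL39, a mitochondrial ribosomal protein 10.5 kb away, differed by 0.32 (adjusted p = 0.0933) and JAM2, a junction protein, by -0.55 (adjusted p = 0.0816). GPC6, a glypican 1862 kb from MIR17HG, was lower in KHOS by -3.88, with a KHOS mean under the filter at 4.08, and SLCO4A1, a transporter 71.7 kb from MIR1-1HG, was higher by 2.69. The neighbours that passed were all higher in KHOS at MIR22HG (2 genes), MIR100HG (2) and MIR1-1HG (3), and all lower at MIR31HG (2) and MIR17HG (1). They were mixed at MIR210HG (2 higher and 2 lower) and at MIR503HG (3 higher and 1 lower). Those at MIR31HG and MIR17HG reached the filter through U-2OS alone, so they could pass only as lower in KHOS.

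**Figure D3:**
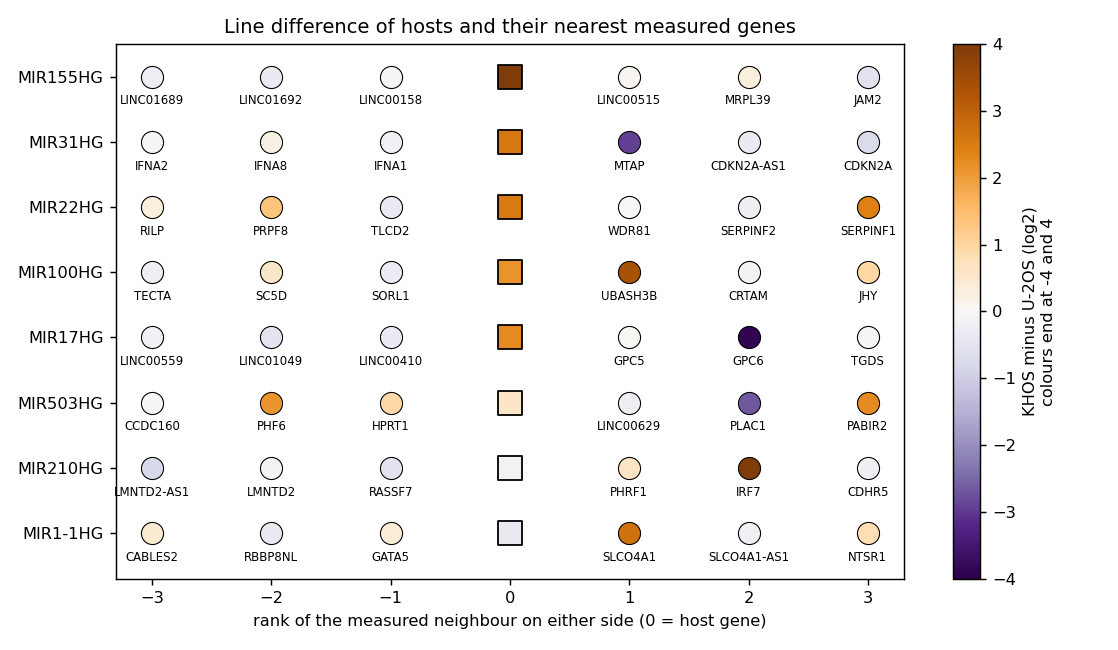
Line difference of each host (square at rank 0) and of the 3 measured genes on either side (circles), coloured by KHOS minus U-2OS (log2, colours end at -4 and 4), with 1 host a row and the neighbour's rank on the x axis. MTAP beside MIR31HG is at -2.92 and GPC6 near MIR17HG at -3.88, while UBASH3B beside MIR100HG is at 3.37.

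Other host transcripts were counted in the same way. Of 39 further MIR host transcripts listed, 25 had a probe set and 10 were tested. In KHOS 1 of these was higher and 5 were lower, against 30.1% and 24.4% of all tested entries, with a median of -0.45. The one that was higher was DLEU2, the host of miR-15a and miR-16-1, by 1.09 ± 0.17 (adjusted p = 0.00258). MIR4458HG was lower by -2.77 and MIR4435-2HG by -1.42, the second of these on a probe set that also carries the symbol of the separate gene CYTOR. The other 3 lower ones, named after their values were seen, were MIR9-1HG at -2.29, MIR124-1HG at -0.74 and MIR1915HG at -0.63. Of 35 tested protein-coding hosts, 13 were higher and 11 were lower, against the same shares of all tested entries, with a median of 0.26. MEST, an imprinted hydrolase gene that hosts miR-335, was higher by 4.63 ± 0.32 (adjusted p = 0.000123). Its U-2OS mean lay under the filter at 4.16.

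Genes whose pattern over the 6 arrays was most like a host's were found by Pearson's r among 4609 genes with an SD of at least 0.5. The 6 points fall into the lines, so r mainly follows the line difference, and from 18 genes (MIR17HG) to 275 genes (MIR155HG) had r over 0.99. Closest to MIR155HG were RAB27B, GTF2IRD2 and MTMR11, and closest to MIR31HG were SLC25A4, CPT1A and VAMP3. Closest to MIR100HG were IBTK, DHRS7B and PCMTD1, and closest to MIR17HG were POLR2A, GATC and CHN1. SCO1 and CAB39 followed MIR22HG, whose second closest probe set carries several symbols and is not named.

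The second question was whether the miR-1 vector changed the hosts relative to the empty vector. None of the 8 entries passed, and 0 of them had an unadjusted p under 0.05 in limma. Over all entries 0% passed, 85 had an unadjusted p under 0.05, and the smallest adjusted p was 0.9999. A typical 95% interval, which is not adjusted for the number of entries, reached 0.47 to either side. The MIR100HG interval ran from -1.06 to 0.52. Changes larger than 0.47 could therefore also have been missed.

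MIR155HG read lower with miR-1 than with miR-null by -0.44 in KHOS and -0.33 in U-2OS. The fitted value was -0.39 ± 0.20 (log2, SE), with an interval of -0.88 to 0.11. It was the 1 entry of 8 with a difference of at least 1.2-fold in the same direction in both lines, against 3.12% of all entries. Its U-2OS arrays all lay under the level filter, so the U-2OS value compares readings at the bottom of the scale and the count gives no sign of a shared difference.

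MIR1-1HG, whose hairpin codes for the transfected microRNA, had a miR-1 minus miR-null value of 0.11 on the KHOS arrays and 0.36 on those of U-2OS. The fitted 0.23 ± 0.19 did not pass, and the U-2OS miR-1 array was the highest of the 6. Its probe set reads the host transcript, and whether it also reads any RNA of the vector was not tested. MIR17HG had 0.17 in KHOS and 0.76 in U-2OS, MIR100HG -0.10 and -0.44, and MIR22HG -0.02 and -0.34. MIR31HG had -0.30 in KHOS, against 0.04 in U-2OS. In all, 6 of the 8 entries had the same sign in both lines. That share was not counted over all entries, so nothing is read from it. Among the 6, MIR503HG 227488_at had only -0.05 in KHOS and -0.02 in U-2OS. The MIR17HG values are those of 232291_at, while its dim probe set 233636_at had -0.48 in KHOS and -0.28 in U-2OS.

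The design text deposited with the series compares miR-1 arrays with the others by a Mann-Whitney test and a fold of 1.2. In that exact two-sided test, 2 miR-1 arrays against 4 others, p was 0.8 for 7 entries and 0.533 for MIR503HG 228235_at. The smallest p this design can give is 0.133, so no gene could pass.

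The third question was how the hosts stood in vector arrays, miR-null and miR-1 together, against the control array. In the fit over both lines 0 of the 8 entries passed and 0 had an unadjusted p under 0.05; 0% of all entries passed, with 2110 under an unadjusted 0.05 and a smallest adjusted p of 0.0504. MIR31HG was below control on all 4 vector arrays, by -0.52 and -0.23 in KHOS (miR-1 and miR-null) and by -0.27 and -0.31 in U-2OS. Its fitted value was -0.33 ± 0.15 (log2, SE) with an adjusted p of 0.363. Without the KHOS control array, where the fit rests on the U-2OS control alone, MIR100HG passed at -0.72 (adjusted p = 0.0297). MIR31HG was the 1 entry of 8 below control on all 4 vector arrays, against 24.8% of all tested entries, and 0 of 8 were above control on all 4, against 14.2%.

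Within the lines several hosts lay on opposite sides of control. Both vector arrays were above control in KHOS and below it in U-2OS for 4 of the 8 entries, those of MIR22HG, MIR100HG, MIR17HG and MIR503HG (227488_at), against 16.9% of all entries. The reverse held for 1 entry, MIR1-1HG, against 10.1%. For MIR503HG 227488_at the U-2OS values were only -0.035 (miR-1) and -0.016 (miR-null). Another MIR503HG probe set over the filter, 229784_at, went below control in KHOS, by -0.40 (miR-1) and -0.59 (miR-null). In U-2OS it had -0.067 and 0.34 in the same order. The U-2OS vector arrays were also those with the narrower range of values, and all tested entries had a median vector change of -0.01 in KHOS and -0.10 in U-2OS.

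MIR100HG had the widest of these splits. Its vector arrays lay 0.41 (miR-1) and 0.52 (miR-null) above control in KHOS, against -0.94 and -0.50 in U-2OS. The line difference in the vector change was 1.19 ± 0.30 (log2, SE; interval 0.51 to 1.86), with an adjusted p of 0.0764. MIR22HG had 0.48 and 0.50 in KHOS against -0.56 and -0.22 in U-2OS, a line difference of 0.88 ± 0.27 (adjusted p = 0.119). MIR17HG had 0.32 and 0.15 in KHOS against -0.24 and -1.01 in U-2OS, a line difference of 0.86 ± 0.40 (adjusted p = 0.254). These differences had the unadjusted p-values 0.00372, 0.011 and 0.0654, and none passed over all entries.

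**Figure D4:**
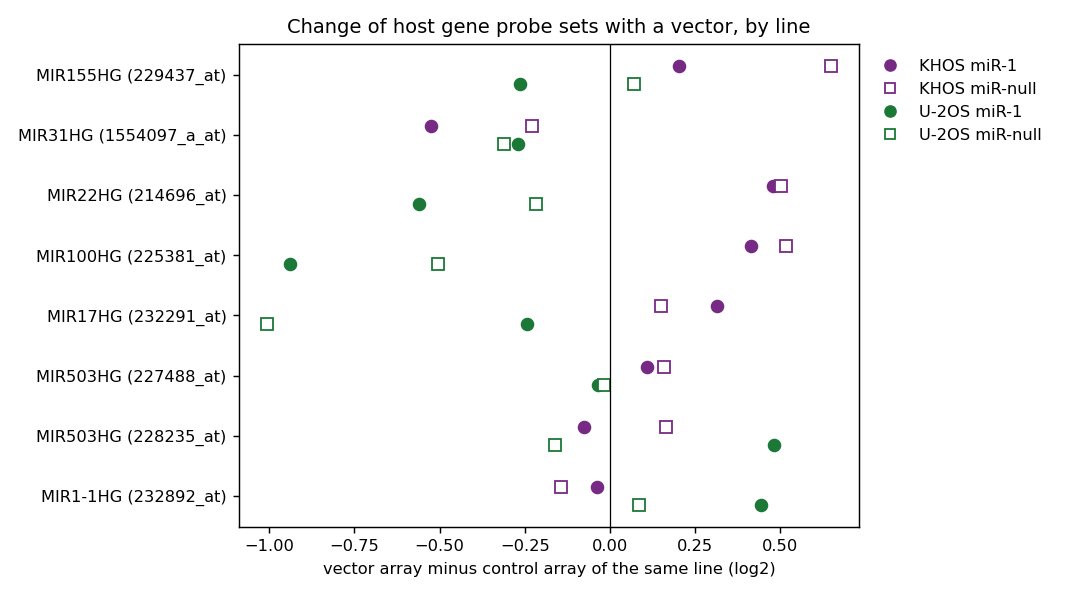
Each vector array minus the control array of its line (x axis, log2) for the 8 tested host entries (y axis), with KHOS in purple and U-2OS in green, miR-1 as filled circles and miR-null as open squares. For MIR22HG, MIR100HG and MIR17HG the KHOS points lie right of 0 and the U-2OS points left of it, and for MIR31HG all 4 lie left of 0.

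For the line difference in the vector change, 0 of the 8 entries passed, against 2.07% of all tested entries (1.82% as higher in KHOS). In limma 2 of the 8 had an unadjusted p under 0.05, against 3064 of all 13696 entries. In KHOS alone 0 of the 8 passed, against 3.89% of all entries. There 1 of the 8 had an unadjusted p under 0.05, against 2518 of all 13696 entries. MIR22HG had 0.49 ± 0.19 (adjusted p = 0.217) and MIR155HG 0.43 ± 0.23 (adjusted p = 0.397). In U-2OS alone 0 passed, against 14.6% of all entries, of which 3.18% as higher and 11.4% as lower. There MIR100HG had -0.72 ± 0.21 (adjusted p = 0.0535) and MIR17HG -0.62 ± 0.28 (adjusted p = 0.169). The spread in these fits is that between the vector arrays of a line, and each line has 1 control array. With 1 vector array of a line left out, the spread comes from the vector arrays of the other line alone, and the single vector array is assumed to vary like them. Without the U-2OS miR-null array the line difference passed for MIR100HG (1.40, adjusted p = 0.0112) and MIR22HG (1.05, adjusted p = 0.0251), and so did their changes in U-2OS (-0.94 and -0.56, adjusted p = 0.00768 and 0.0467). When the miR-1 array of U-2OS was dropped, MIR17HG passed, with a line difference of 1.24 (adjusted p = 0.0323) and -1.01 in U-2OS (adjusted p = 0.0126).

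Immediate early and stress genes were set beside MIR22HG. Of the 10 genes, 9 passed as higher with a vector in KHOS and 7 in U-2OS, against 3.34% and 3.18% of all tested entries. MIR22HG passed in neither line. ATF3, a stress transcription factor, was higher by 3.29 ± 0.30 in KHOS (adjusted p = 0.00229) and 2.37 ± 0.30 in U-2OS (adjusted p = 0.00534). DDIT3, the CHOP factor of the unfolded protein response, was higher by 2.06 and 1.85. The median of the list was 1.94 in KHOS and 1.53 in U-2OS. The plasmid and the reagent cannot be told apart here, since all 4 vector arrays had both. A sign of RNA makeup moved with the vector as well: of 3 probe sets for 28S ribosomal RNA, 2 were above control on all 4 vector arrays. The middle one read 12.70 and 12.41 in KHOS (miR-1 and miR-null) against 11.49 for control, and 13.13 and 13.02 in U-2OS against 12.06 for control. Its part in the vector comparisons was not tested.

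The genes of NF-kB, AP-1 and their feedback listed beside MIR155HG, and the regulators and relatives listed for MIR17HG, were followed in the vector comparison. Of the 12 tested NF-kB and AP-1 genes, 6 were higher with a vector in KHOS and 0 in U-2OS. Over all tested entries 3.34% were higher in KHOS and 3.18% in U-2OS. The line difference passed for 1 of the 12, against 2.07% of all tested entries. This was REL (2.03, adjusted p = 0.0478), a NF-kB subunit named after its value was seen. FOS, an AP-1 subunit also in the stress list, was higher by 4.16 ± 0.61 in KHOS (adjusted p = 0.0114) and had 1.99 ± 0.61 in U-2OS (adjusted p = 0.0615). TNFAIP3, an NF-kB feedback inhibitor, was higher by 2.51 ± 0.37 in KHOS (adjusted p = 0.0115). MIR155HG beside them had 0.43 in KHOS and -0.10 in U-2OS, neither passing. MYC was higher by 2.31 ± 0.22 in KHOS (adjusted p = 0.00229), and MIR17HG there had 0.23 ± 0.28 (adjusted p = 0.757). Of the 8 tested genes of the MIR17HG list, 2 were higher with a vector in KHOS, MYC and CDKN1A (0.93, adjusted p = 0.0236), and 0 in U-2OS. In U-2OS 2 were lower, against 11.4% of all tested entries. Named after their values were seen, they were E2F2, an E2F factor, by -0.81 (adjusted p = 0.0432), and MCM7, a replication helicase subunit, by -1.01 (adjusted p = 0.00939).

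MIR210HG was under the level filter on both probe sets. Probe set 230710_at lay under control on the vector arrays of both lines, by -0.29 and -0.41 in KHOS (miR-1 and miR-null) and -0.17 and -0.44 in U-2OS. Probe set 236480_at did not lie under control throughout, at -0.046 (miR-1) and -0.27 (miR-null) in KHOS, against -0.15 (miR-1) and 0.023 (miR-null) in U-2OS. Of 13 hypoxia genes, 1 was higher with a vector in KHOS (KDM3A, a histone demethylase, by 0.91) and 2 in U-2OS (ADM, by 1.36, and NDRG1, by 1.20). Over all tested entries 3.34% were higher in KHOS and 3.18% in U-2OS. Of 8 cell cycle genes beside MIR503HG, 3 were lower and 1 was higher with a vector in U-2OS. Over all tested entries 11.4% were lower and 3.18% higher. CDK6, a G1 kinase, had -1.37 (adjusted p = 0.00475), CCND1 -0.74 and CCND2 -0.80, and CCNE1, named after its value was seen, had 0.75. MIR503HG itself had -0.03 in U-2OS on 227488_at and 0.16 on 228235_at, neither passing. Its probe set 229784_at, fitted over all probe sets with no filter, had 0.14 there and -0.50 in KHOS, neither passing.

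In KHOS 0 of the 10 other host transcripts passed with a vector, against 3.89% of all tested entries. In U-2OS 1 was higher and 1 was lower, against 3.18% and 11.4%. The lower one was DLEU2, at -0.79 (adjusted p = 0.0383), and the higher one MIRLET7BHG, the host of let-7b, at 0.71 (adjusted p = 0.0303), named after its value was seen. Of 35 protein-coding hosts 6 were lower with a vector in U-2OS and 1 in KHOS, against 11.4% and 0.548% of all tested entries. CTDSP1, a phosphatase gene that hosts miR-26b, had -1.13 in U-2OS (adjusted p = 0.00963), and MEST had -1.47 in KHOS (adjusted p = 0.0146).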

How the data were processed

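RNA of KHOS and U-2OS cells was measured on 6 Affymetrix U133 Plus 2.0 arrays. Per the labels and the deposited design text, the authors made log2 expression values by RMA normalization in Qlucore 3.2; the text also mentions scaling by gene averages, but the deposited log2 values are not centred per gene. They were used as deposited and run from 2.83 to 14.84 over the probe sets that are not controls. RMA compresses differences near the floor. Precision is limited by the number of arrays.

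Of 54675 probe sets, 62 control probe sets were left out. Platform annotation gave 41091 of the rest 1 gene symbol, 1801 several and 11721 none. Each of 20875 entries (a symbol, or a set of symbols annotated together) was represented by its brightest probe set, and the 13696 entries with a mean of at least 5.11, the median over the whole array, were tested.

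Differences were fitted with limma 3.58.1 (lmFit, eBayes) in R 4.3.3, with Benjamini-Hochberg adjustment over all tested entries and a threshold of 0.05. An additive fit of treatment and line gave miR-1 minus miR-null, vector (miR-null and miR-1) minus control, and KHOS minus U-2OS. An interaction fit of line and vector gave the changes within lines and their difference. Each left 2 residual degrees of freedom. The line pairs the treatments. Because RNA was pooled, p-values reflect array-to-array spread and not culture-to-culture spread; in the additive fit that spread includes any unequal response of the lines. The fits were tested on simulated data. Tables were handled in Python 3.11.15.

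The host genes, the gene lists and the tests were chosen with earlier results of these data known. Named genes were the members, the 3 most correlated genes of each member with an SD of at least 0.5, up to 3 genes of each list with the largest vector change, and the 3 measured genes on each side of a member. Alternatives were another normalization, other filters, other ways to represent a gene, a mean-dependent prior variance, no line term, and leaving out each array. A fit on probe sets with 1 symbol was added after seeing the data.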

Additional observations from a re-analysis of the deposited data

Results flagged for a closer look

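In 5 of the 8 host entries both vector arrays moved one way from control in KHOS and the other way in U-2OS. The difference itself was tested in limma, and none of the 5 passed. As the KHOS minus U-2OS difference of the mean vector change (log2), the values were 1.19 for MIR100HG (adjusted p = 0.0764), 0.88 for MIR22HG (adjusted p = 0.119), 0.86 for MIR17HG (adjusted p = 0.254), 0.16 for MIR503HG on 227488_at (adjusted p = 0.709) and -0.36 for MIR1-1HG (adjusted p = 0.469). Such splits were found in 16.9% of all tested entries in the direction of the first 4 and in 10.1% in that of MIR1-1HG. Each rests on 1 control array per line. The split of MIR503HG was not shared by its probe set 229784_at, which had -0.40 (miR-1) and -0.59 (miR-null) in KHOS. In U-2OS that probe set had -0.067 and 0.34 in the same order.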

How the results depend on the processing

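The line differences of MIR155HG, MIR31HG, MIR22HG, MIR17HG and MIR100HG passed under every alternative in which they were tested, with the same sign. Of the 8 host entries, 2 passed between the lines at a filter of the 75th percentile, where 2 were tested, and 2 passed with 1-symbol probe sets, where 3 were tested; leaving out 1 array gave 5 to 7. Leaving out 1 array gave 0 to 1 passing entries for vector minus control, 0 to 2 for the line difference in the vector change and 0 to 2 within U-2OS. In both of these last comparisons 1 entry, MIR100HG, passed at the 75th percentile filter (adjusted p = 0.0411 for the line difference and 0.0275 in U-2OS) and 1, again MIR100HG, with a mean-dependent prior variance (adjusted p = 0.0287 and 0.0245).

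Values that turned sign had not passed. MIR503HG 228235_at within KHOS was -0.0017 after quantile normalization and -0.23 as a mean of probe sets, which also gave -0.039 for vector minus control. Over arrays left out in turn, miR-1 minus miR-null ran from -0.69 to 0.15 for MIR100HG, -0.52 to 0.16 for MIR22HG, -0.27 to 0.020 for MIR31HG, -0.16 to 0.56 for MIR503HG 228235_at and -0.086 to 0.017 for 227488_at. Vector minus control ran from -0.091 to 0.27 for MIR1-1HG, -0.72 to 0.46 for MIR100HG, -0.097 to 0.43 for MIR155HG, -0.62 to 0.23 for MIR17HG, -0.39 to 0.49 for MIR22HG, -0.078 to 0.28 for MIR503HG 228235_at and -0.026 to 0.13 for 227488_at; without a control array this contrast is the change of the other line. The line difference of 228235_at ran from -0.040 to 0.40, its line difference in the vector change from -0.44 to 0.20, and its change from -0.078 to 0.16 within KHOS and from -0.16 to 0.48 within U-2OS. The line difference in the vector change ran from -0.23 to 0.061 for MIR31HG, and the change within U-2OS from -0.26 to 0.069 for MIR155HG.

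With no replicate block (the line term dropped), 0 host entries passed for miR-1 minus miR-null and 0 for vector minus control, as with it. Over all genes the count for vector minus control was 0 as reported, 86 with that prior variance, 20 with no filter on level, 9 after quantile normalization and 2309 and 712 without the KHOS or the U-2OS control array. For the line difference in the vector change it was 284 as reported, 923 with that prior variance, 22 after quantile normalization, 558 at the 75th percentile filter, and 3 to 1747 with 1 vector array left out. Within KHOS it was 533 as reported, 131 after quantile normalization, 1181 with that prior variance and 79 to 1103 with 1 vector array left out; within U-2OS it was 2003, 1061, 2910 and 294 to 3438. For KHOS minus U-2OS it was 7465 as reported, 17205 when every probe set was tested, 4956 at the 75th percentile filter and 4543 to 9211 with 1 array left out. The fits within lines could not be fitted without a control array.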
